A study of Homo sapiens with 12 samples.

Results

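Zinc finger genes that carry a number in their name (ZNF followed by digits) form the largest group of human transcription factors, and about as many are expressed off chromosome 19 as on it in these cells. The genes described here were every row whose symbol had the form ZNF, a number and at most 1 further letter, whose gene lies on an autosome other than 19 in GENCODE release 44 of GRCh38, and whose mean over the 6 untreated libraries was at least 10. Of 249 such genes in the table, 221 passed and are called the members. The other 28 fell below the minimum, 5 of them were listed at 0 in all libraries, and 0 of the 28 reached a mean of 10 in treated cells. The members lay on 19 chromosomes, and they are set against 208 numbered zinc finger genes of chromosome 19 and against all 13811 genes that passed the same minimum. Just inside it were ZNF852 at 10.6, ZNF513 at 11.5 and ZNF843 at 13.5, and just outside were ZNF483 at 9.66, ZNF862 at 9.58 and ZNF705A at 9.14. Of the members, 5 had an untreated mean under 10 in at least 1 genotype, 38 had an untreated mean under 50, and 141 had at least 100.

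The cells were U2OS, a human osteosarcoma line, transiently transfected with a plasmid for Cas9 and a guide that was either nontargeting (NONT) or aimed at 1 of 2 genes, NUP93 for a scaffold protein of the nuclear pore, or EXOSC5 for a core subunit of the RNA exosome. They were pools of selected cells and not clones, so a lower value in part of the cells and a lower value in every cell cannot be told apart. Each genotype was left untreated or exposed to 1 µM triptolide, which blocks initiation by RNA polymerase II through the TFIIH subunit XPB, for 8 h, with 2 libraries in each of 6 groups. By the study's methods, puromycin selection and regrowth were each a day shorter for the NUP93 and EXOSC5 guides than for other guides, so guide and selection time cannot be told apart. Whether the 2 libraries of a group came from separate transfections is not given in the sources used here, and p-values therefore measure the spread between these libraries, which may be technical.

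Values are mRNA levels per gene scaled to ERCC spike-in RNA that had been added in proportion to cell number, and a value is not a read count. Approximate depth was 8.60 M to 11.96 M reads per library, where M is 1e+06 reads. EXOSC5 mRNA was 299.4 and 481.3 in NONT untreated against 215.9 and 147.7 in EXOSC5-KO untreated (log2 difference −1.08 ± 0.29 SE, adjusted p = 0.151), and NUP93 mRNA was 1753 and 2489 against 1395 and 1432 in NUP93-KO untreated (−0.56 ± 0.20, adjusted p = 0.926). Neither difference passed the threshold. The 2 NONT untreated libraries stood apart on this scale, with a median difference of −0.51 (log2, replicate 1 minus replicate 2) over all genes and −0.48 over the members. Of the marker genes for the line, COL1A1 (23577 or more), SPARC (13193 or more), VIM, RUNX2 and ALPL were present in all 6 untreated libraries, while SP7 was listed at 0 and BGLAP did not exceed 5.68. CD3E and SOX10 were listed at 0, PTPRC, ALB and KRT19 did not exceed 6.65, and COL1A2 (10.2 to 42.0), which is a marker of the line, EPCAM (16.8 to 47.6), CDH1 (32.2 to 69.7) and MAP2 (40.3 to 129) had low values.

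A C2H2 zinc finger is a short fold in which a pair of cysteines and a pair of histidines hold a zinc ion, and tandem fingers read DNA through a few residues in each finger. Many of the proteins carry a KRAB domain at their N terminus, which recruits the corepressor TRIM28 and, with it, the histone methyltransferase SETDB1 and HP1 proteins, and they are known for silencing transposable elements. Others carry a SCAN domain for pairing with one another, and some numbered zinc finger proteins bind RNA, ribosomes or the spindle in place of DNA. In arrays of fingers, neighbouring fingers are joined by a conserved link, and its codons can be read in the coding sequence.

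The link was searched as ACNGGNGANAANCC, in frame and on the coding strand of the canonical transcript. At least 1 link was found in 147 members (66.5%), in 85.1% of the numbered zinc finger genes of chromosome 19, and in 3.33% of all tested genes with a coding sequence. The highest number of links in a member was 19. A match describes these letters alone. The stretch from 1 link to the next is shown for 6 members, which are a chosen list. ZNF778 passed the threshold in EXOSC5-KO without drug. ZNF74 passed it for a difference between genotypes in the response to triptolide, and ZNF263 came close to it there. ZNF316, also called for such a difference, is not shown. ZNF664 had the highest level per kilobase among members with more than 1 link, and ZNF92 and ZNF595 were alike in sequence and far apart in response. ZNF778 was the 1 member called in its comparison (background 0.521% of all genes) and ZNF74 was 1 of 2 (0.775%). These calls were lost in 6 and 13 of 21 alternatives. ZNF92 was chosen after its values were seen. The links are in capitals, and each stretch is 98 bases of the coding strand, read 5′ to 3′ from the GENCODE transcript.
ZNF74: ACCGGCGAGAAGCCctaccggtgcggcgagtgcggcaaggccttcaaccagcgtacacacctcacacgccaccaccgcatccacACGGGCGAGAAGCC
ZNF92: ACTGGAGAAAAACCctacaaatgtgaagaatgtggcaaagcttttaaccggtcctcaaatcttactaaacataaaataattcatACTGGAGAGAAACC
ZNF263: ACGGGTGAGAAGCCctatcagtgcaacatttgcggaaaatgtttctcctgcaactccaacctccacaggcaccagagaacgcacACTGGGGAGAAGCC
ZNF595: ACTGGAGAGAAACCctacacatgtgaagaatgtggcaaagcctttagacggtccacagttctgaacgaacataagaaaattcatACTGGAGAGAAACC
ZNF664: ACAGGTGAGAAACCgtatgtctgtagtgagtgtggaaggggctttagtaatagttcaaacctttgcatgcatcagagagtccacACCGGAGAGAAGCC
ZNF778: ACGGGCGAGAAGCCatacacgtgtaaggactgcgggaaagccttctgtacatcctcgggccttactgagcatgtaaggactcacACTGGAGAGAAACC

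All 6 stretches lie on the plus strand of GRCh38 in the last coding exon of their transcript. They are at chr22:20406096-20406193 in exon 5 of ZNF74, chr7:65398784-65398881 in exon 4 of ZNF92, chr16:3289875-3289972 in exon 6 of ZNF263, chr4:86171-86268 in exon 4 of ZNF595, chr12:124012472-124012569 in exon 5 of ZNF664, and chr16:89227618-89227715 in exon 7 of ZNF778. ZNF92 and ZNF595 shared 84 of 98 bases (85.7%), the highest identity among the 15 pairs, and ZNF263 and ZNF595 shared 54 (55.1%), the lowest. Sequence held in common with other genes bears on the measurement, since reads were assigned to transcripts by 31-base words. A word counted as shared if any transcript of another annotated gene held it, within or outside the fingers. The median member shared 1.98% of these words with another gene's transcripts, 142 members shared under 5%, and 23 shared over 20%. Shares were counted against all GENCODE transcripts, whereas the authors' index was built from Ensembl cDNA, so some shared words may not have been in it. Values may be uncertain for members with high shares, and the effect was not tested. Among them were ZNF23 (98.8%), ZNF410 (86.3%), ZNF286A (80.6%), ZNF658 (79.7%), ZNF263 (49.4%), ZNF280D (48.8%), ZNF747 (45.6%), ZNF511 (45.3%) and ZNF532 (22.6%). ZNF778 (3.94%) and ZNF74 (1.29%) shared little.

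Loss of mRNA after triptolide was examined first. The members fell further than most genes in each genotype. In NONT, the members' median log2 change was −3.36 (interquartile range −4.44 to −2.39), whereas the median over all genes was −1.62. In NUP93-KO the medians were −2.53 (−3.47 to −1.65) and −0.92, and in EXOSC5-KO they were −2.54 (−3.44 to −1.49) and −1.08. Set against the median gene, the members stood at −1.74 in NONT, −1.61 in NUP93-KO cells and −1.46 in EXOSC5-KO, and over the 4 ways to pair treated and untreated libraries they ranged over −1.84 to −1.61, −1.65 to −1.47 and −1.48 to −1.40. Of the 221 members, 199, 199 and 193 lay below the median gene in the respective genotypes. The numbered zinc finger genes of chromosome 19 had medians of −3.29, −2.77 and −2.67. These are descriptions of lists, and no test of the lists was made.

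Individually, 214 members were lower after triptolide in NONT at an adjusted p under 0.05 (limma), where 90.0% of all genes tested were lower, so this count says little about the members. In NUP93-KO 189 were lower (background 55.1%), and in EXOSC5-KO 188 were lower (background 64.3%). No member was higher in any genotype at an adjusted p under 0.05, where the background of higher calls was 0.0507% in NONT, 0.138% in NUP93-KO cells and 0.0796% in EXOSC5-KO. At an unadjusted p under 0.05, 0 of 221 members were higher in each genotype (limma), beside 8, 30 and 14 of all genes. Falls of more than 3 on the log2 scale were seen in 58.4% of the members in NONT, 37.1% in NUP93-KO cells and 38.5% in EXOSC5-KO, against 19.9%, 11.6% and 12.2% of all genes. The median member kept 8.82% of its untreated value in NONT, 17.2% in NUP93-KO cells and 16.3% in EXOSC5-KO. Together the members made up 0.443% and 0.428% of all gene values in NONT untreated and 0.165% and 0.167% after triptolide. In NUP93-KO the shares were 0.428% and 0.429% and then 0.175% and 0.171%, and in EXOSC5-KO they were 0.480% and 0.480% and then 0.212% and 0.201%.

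**Figure D1:**
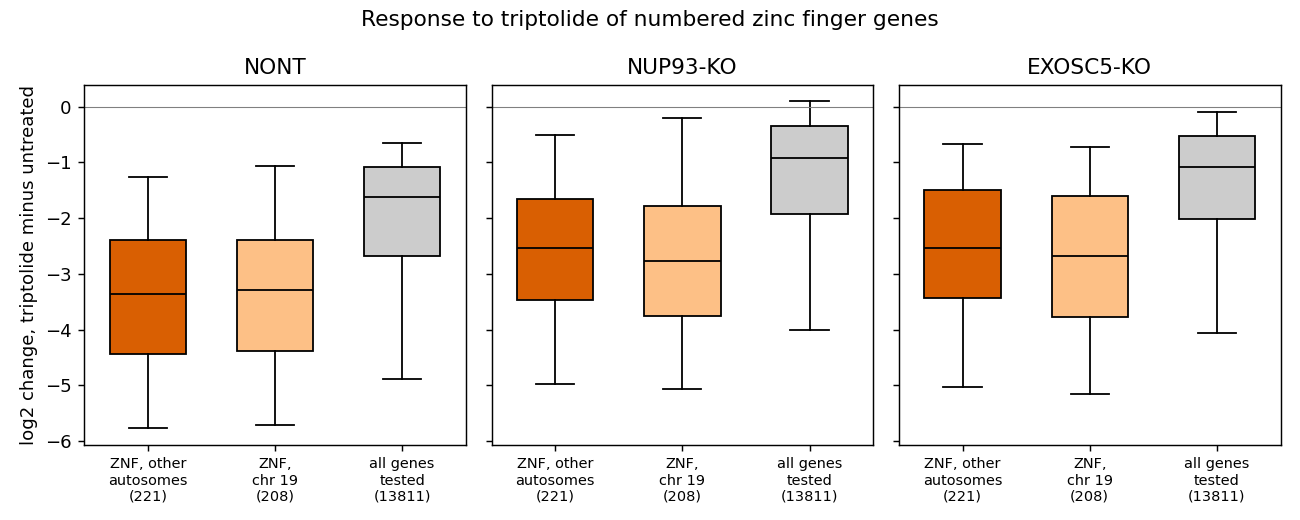
Log2 change after triptolide (vertical axis) in NONT, NUP93-KO and EXOSC5-KO cells for the 221 members, the 208 numbered zinc finger genes of chromosome 19 and all 13811 genes tested. Boxes span the quartiles, the line is the median and whiskers reach the 5th and 95th percentiles over genes, and in each panel both zinc finger boxes sit below the box of all genes.

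These falls depend on the spike-in scale. When libraries were set to the same total, 167, 161 and 146 members were lower and 1, 1 and 2 higher (NONT first, NUP93-KO next, EXOSC5-KO last), beside 5270 lower and 2105 higher of all genes in NONT, 5430 and 1922 in NUP93-KO cells, and 5078 and 2027 in EXOSC5-KO. With median-of-ratios scaling, 148, 145 and 134 members were lower and 8, 7 and 7 higher, beside 4185 lower and 3752 higher of all genes in NONT, 4100 and 3681 in NUP93-KO cells, and 3963 and 3611 in EXOSC5-KO. The median gene moved from −1.62 to −0.32 and −0.01 in NONT under these scales, whereas the members relative to it stayed at −1.77 and −1.78.

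The deepest falls were taken among members with an untreated mean of at least 100 in a genotype. In NONT they were those of ZNF503, ZNF668, ZNF703 and ZNF830, which have at most 3 exons and at most 1 link. ZNF503, a developmental corepressor, read 318.2 and 418.2 in NONT untreated and 0.602 and 1.47 after triptolide, 322.6 and 367.4 then 1.75 and 4.98 in NUP93-KO cells, and 410.6 and 326.5 then 0.936 and 3.29 in EXOSC5-KO. Treated and untreated libraries did not overlap in any genotype, and the treated values are only a few reads each, since 1 read was worth an estimated 0.490 to 1.76 in these libraries. Its log2 changes were −7.52 ± 0.52 (SE), −6.41 ± 0.52 and −6.99 ± 0.52, with adjusted p between 1.9e-09 and 3.7e-08. ZNF281, a GC-box-binding factor, fell from 1044 and 1462 to 9.99 and 9.59 in NONT (−6.84 ± 0.31, adjusted p = 4.2e-11), from 823.2 and 870.3 to 13.2 and 13.5 in NUP93-KO cells (−5.88), and in EXOSC5-KO from 1323 and 1179 to 7.06 and 11.2 (−6.98). ZNF830 (−7.003, −5.66 and −5.36) and ZNF703 (−7.09, −5.10 and −5.39) fell in all genotypes with adjusted p of 1e-07 at most. ZNF668 fell by 7.12 in NONT, from 138.7 and 227.0 to 0.635 and 0, and by 4.05 and 4.84 in the knockouts. ZNF436 was among the deepest in NUP93-KO cells, at 135.1 and 141.9 untreated and 0 and 2.13 treated, and ZNF282 in EXOSC5-KO, at 242.2 and 235.0 untreated and 0 and 6.59 treated.

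At the other end were members with small changes. ZNF532 read 778.8 and 979.5 in NONT untreated and 508.8 and 370.5 treated, 800.0 and 812.8 then 693.8 and 752.0 in NUP93-KO cells, and 1247 and 1024 then 749.1 and 696.2 in EXOSC5-KO. It was lower in NONT (−1.01 ± 0.21, adjusted p = 0.00029) and EXOSC5-KO (−0.65 ± 0.21, adjusted p = 0.013), and its change in NUP93-KO was −0.16 ± 0.21 (adjusted p = 0.54). Relative to the median gene it stood at 0.61, 0.76 and 0.43, and under same-total and median-of-ratios scaling it turned positive in all genotypes. ZNF219 (−1.10, −0.38 and −0.63), ZNF664 (−1.20, −0.45 and −0.42), ZNF655 (−1.22, −0.45 and −0.54), ZNF385A (−1.12, −0.55 and −0.31) and ZNF595 (−1.21, −0.32 and −0.47) were likewise above the median gene in each genotype, and each was lower in NONT at the threshold. For these 5 genes the change in NUP93-KO did not pass the threshold (adjusted p from 0.071 to 0.29), and median-of-ratios scaling turned the sign in NONT and EXOSC5-KO for all 5. ZNF467, a factor of the osteoblast and adipocyte lineages, changed by −1.09 in NONT and −1.34 in NUP93-KO cells, past the threshold and in NUP93-KO by more than the median gene, and by −0.69 in EXOSC5-KO (adjusted p = 0.11), and its change in NONT turned positive under same-total and median-of-ratios scaling.

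Among the 6 members whose stretches are shown, ZNF92 and ZNF595 had the most alike stretches and lay far apart in response. Only 1 stretch per gene was compared. ZNF92 was chosen after its values were seen, so the contrast follows from the choice and is given as a description. ZNF92 on chromosome 7 (65373799 to 65401136) read 105.5 and 126.3 in NONT untreated and 0 and 2.90 treated, 105.5 and 118.3 then 5.36 and 0 in NUP93-KO cells, and 125.0 and 121.4 then 2.29 and 4.93 in EXOSC5-KO. ZNF595 on chromosome 4 (53286 to 88208) read 295.6 and 374.0 then 145.2 and 141.3 in NONT, 214.6 and 287.3 then 199.6 and 198.4 in NUP93-KO cells, and 452.7 and 339.3 then 300.1 and 267.8 in EXOSC5-KO. The log2 changes of ZNF92 were −5.88, −5.48 and −4.81 (SE 0.77), so all 6 treated values were below 6 while those of ZNF595 were above 141. They shared 14.5% and 19.9% of their 31-base words with other genes.

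Level per kilobase of transcript puts members of different length on 1 scale. The highest untreated means per kilobase were those of ZNF622 (730), ZNF410 (485), ZNF664 (450), ZNF593 (389), ZNF511 (376) and ZNF32 (330). ZNF622 and ZNF593 work in assembly of the large ribosomal subunit and ZNF410 activates CHD4, a remodeller of the NuRD complex. Their responses in NONT spanned much of the members' range, from −4.92 for ZNF622 and −4.26 for ZNF410 through −2.80 for ZNF593 and −1.74 for ZNF32 to −1.38 for ZNF511 and −1.20 for ZNF664, the last 2 of which turned positive in NONT under median-of-ratios scaling. Over all members the untreated mean had a median of 156, against 345 over all genes.

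Members with well-known roles were grouped by what their proteins do, and each count of such genes below stands against the 90.0% of all genes that were lower in NONT, 55.1% in NUP93-KO cells and 64.3% in EXOSC5-KO. All 10 genes of transcription and chromatin were lower in each genotype, with a median of −3.59 in NONT, −2.62 in NUP93-KO cells and −2.80 in EXOSC5-KO. ZNF143, an activator that binds many promoters, fell from 207.4 and 359.4 to 10.35 and 17.4 in NONT (−4.24 ± 0.44, adjusted p = 1.9e-07), by 3.73 in NUP93-KO cells and by 2.93 in EXOSC5-KO. Its paralogue ZNF76 fell less, from 303.5 and 506.5 to 54.4 and 44.7 in NONT (−2.96 ± 0.30), by 1.66 in NUP93-KO cells and by 1.43 in EXOSC5-KO. ZNF410 went from 1123 and 1540 to 72.0 and 64.0 in NONT, and its target CHD4 changed by −1.56, −0.79 and −1.10 in the 3 genotypes. ZNF148 (−4.62, −3.78 and −3.35), ZNF292 (−3.72, −2.60 and −2.62), ZNF644, a partner of the H3K9 methyltransferases G9a and GLP (−3.47, −2.65 and −3.28), and ZNF384 (−3.07, −2.04 and −2.67) were also lower throughout. The smallest falls of the group in NONT were those of ZNF335, a subunit of H3K4 methyltransferase complexes (−1.93, −1.16 and −1.40), and ZNF462 (−2.15, −1.79 and −2.38).

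Of 5 genes known from cancer and cell lineage, 4 were lower in NONT (background 90.0%), 3 in NUP93-KO cells (55.1%) and 3 in EXOSC5-KO (64.3%). ZNF217, amplified in breast cancer, read 593.9 and 695.2 in NONT untreated and 16.2 and 1.44 treated (−6.63 ± 0.68, adjusted p = 1.7e-07), and it fell by 5.61 in NUP93-KO cells and by 5.99 in EXOSC5-KO. ZNF703, also amplified in breast cancer, went from 354.3 and 441.0 to 2.41 and 1.47 in NONT. ZNF516, a factor of brown fat, changed by −4.29, −3.17 and −3.06. ZNF423 and ZNF521, paralogues that act in mesenchymal and neural precursors, were low throughout. ZNF521 (24.3 untreated mean) was lower in NONT (−2.35 ± 0.77, adjusted p = 0.0092), and ZNF423 read 6.17 and 31.01 in NONT untreated and 19.8 and 2.86 treated, with overlap and an adjusted p of 0.41.

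The 9 genes of the spindle, SUMO ligation, ribosomes and RNA were all lower in each genotype, with the smallest median fall of the 4 role groups (−2.33, −1.72 and −2.08). ZNF207, which carries BUB3 to kinetochores, had the highest value of this group, at 2985 and 4364 in NONT untreated and 982.8 and 932.4 treated (−1.91 ± 0.19, adjusted p = 1.3e-07), with −1.07 in NUP93-KO cells and −1.36 in EXOSC5-KO. ZNF106 (−1.95, −0.93 and −1.42) and ZNF326, a protein of the spliceosome and elongating polymerase (−1.26, −0.74 and −1.11), were, with ZNF207, the members of the group that fell least in NONT, and under median-of-ratios scaling the sign of ZNF326 turned in NONT and NUP93-KO. ZNF598, the ligase that marks collided ribosomes, changed by −2.30, −1.996 and −2.08, ZNF451, a SUMO ligase, by −2.33, −1.52 and −2.30, and ZNF638, a protein that silences retroviral DNA, by −2.91, −2.11 and −2.31. ZNF622 had the deepest fall of the group, from 936.7 and 1453 to 36.7 and 38.6 in NONT (−4.92 ± 0.27, adjusted p = 1.7e-10), and ZNF346, which binds double-stranded RNA, changed by −3.82, −2.83 and −3.01. ZNF593 changed by −2.80, −1.72 and −1.50.

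The 6 genes listed here for KRAB or SCAN proteins were all lower in each genotype (medians −4.21, −2.66 and −3.03). They are a chosen list and not every member with such a domain. ZNF10, whose KRAB domain is the one used in CRISPR interference, was low, at 43.1 and 34.9 in NONT untreated and 4.10 and 1.16 treated (−3.58 ± 0.61, adjusted p = 4.6e-05). ZNF445, which protects genomic imprints, changed by −3.48, −2.48 and −2.74, and the SCAN proteins ZNF24 and ZNF174 by −3.63, −2.85 and −3.14 and by −4.79, −3.99 and −5.11. ZNF202 changed by −4.84, −1.9997 and −2.51. A list of 20 other genes of the KRAB pathway had smaller median falls in mRNA than the 6 above. It covered TRIM28, H3K9 and DNA methylation, HP1, NuRD and HUSH, and also held TRIM24, TRIM33 and ZMYM2. Of these genes, 20 were lower in NONT (background 90.0%), 13 in NUP93-KO cells (55.1%) and 16 in EXOSC5-KO (64.3%), and 0 were higher. Their medians were −1.86, −0.96 and −1.13, close to those of all genes. TRIM28 changed by −1.14, −0.59 and −0.94 and the HP1 gene CBX3 by −1.03, −0.26 and −0.66 (adjusted p in NUP93-KO cells 0.029 and 0.29), whereas ATF7IP, the stabiliser of SETDB1, changed by −3.76, −3.37 and −3.95. SETDB1 itself was low, at 79.1 and 107.7 in NONT untreated and 15.8 and 18.9 treated (−2.35), and its changes in NUP93-KO cells (−0.43, adjusted p = 0.54) and EXOSC5-KO (−0.74, adjusted p = 0.24) did not pass the threshold.

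**Figure D2:**
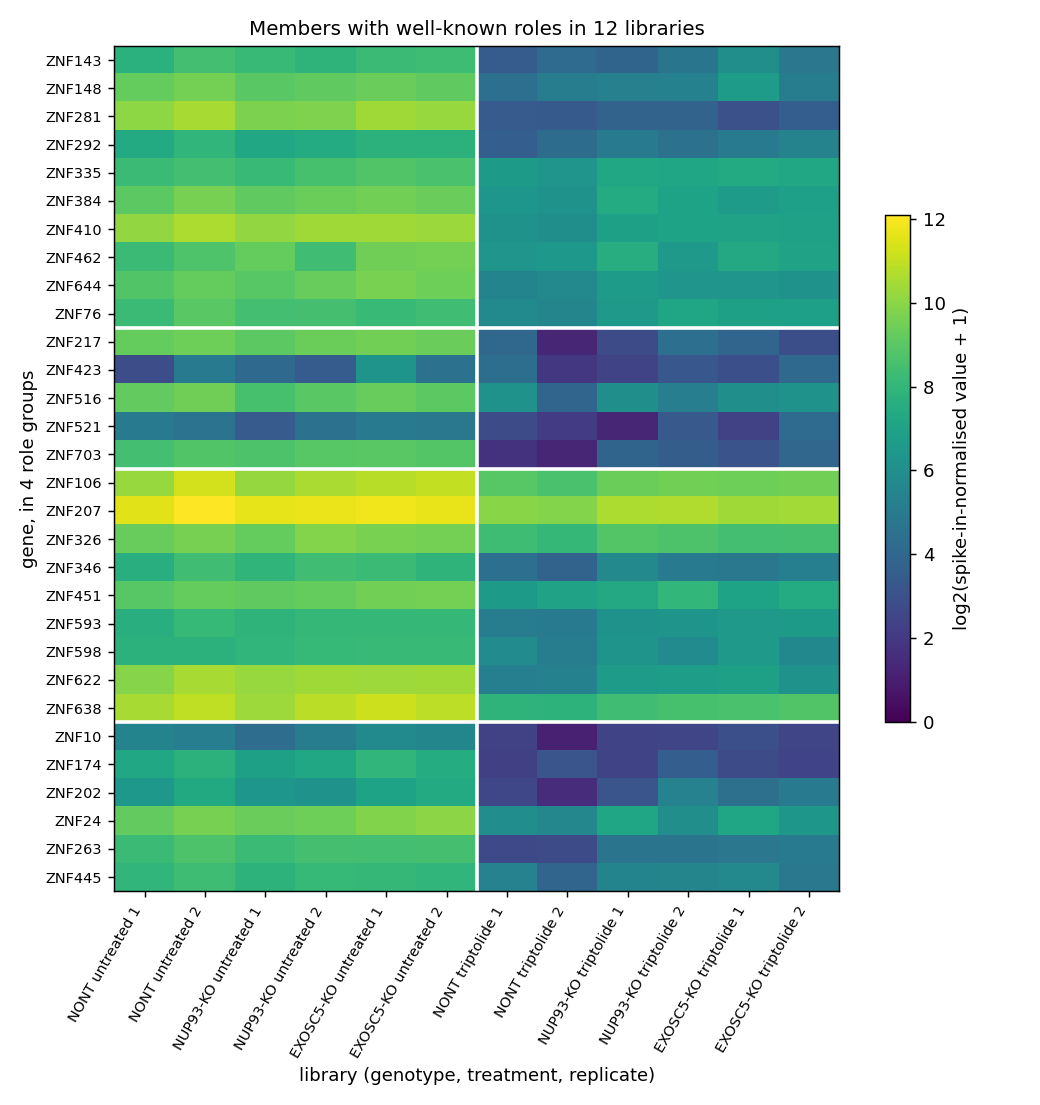
Heat map of log2(value + 1) for the 30 members with well-known roles (rows, 4 groups parted by horizontal lines) in the 12 libraries (columns, untreated at left and triptolide at right of the vertical line). Values are lower at right than at left in nearly all rows, most in ZNF217, ZNF703 and ZNF281 and least in ZNF326.

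Features that the choice of genes did not use were then compared. Members with 1 to 3 links (52 genes) had the deepest medians relative to the median gene, at −2.41 in NONT, −2.07 in NUP93-KO cells and −1.99 in EXOSC5-KO. Members with no link (74 genes) stood at −1.34, −1.33 and −1.24, those with 4 to 7 links (64 genes) at −1.52, −1.51 and −1.72, and those with 8 or more (31 genes) at −1.49, −1.26 and −0.63. The deeper fall of the members was thus seen in genes with and without the link, and it did not grow with the number of links (Spearman's rho across members between −0.01 and 0.09). Over all tested genes the 433 with at least 1 link, most of them zinc finger genes, stood at −1.73, −1.70 and −1.58. Members had a median of 5 exons and all genes 9, and the median GC content at the third position of codons was 48.2% against 58.7%. Across members, the number of exons went with the response at rho = 0.21, 0.26 and 0.17, the GC content at the third position at −0.16, −0.13 and −0.18, the share of 31-base words held in common with other genes at 0.17, 0.18 and 0.17, and length of the transcript, coding sequence and 3′ UTR at rho between −0.01 and 0.05. Over all genes the number of exons went with the response at rho = 0.17, 0.20 and 0.15, so that relation was not particular to the members. The GC content at the third position stood at 0.014, 0.031 and 0.098 over all genes, and transcript length at −0.19, −0.16 and −0.20. These are correlations across genes that share libraries, and they are given as descriptions.

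**Figure D3:**
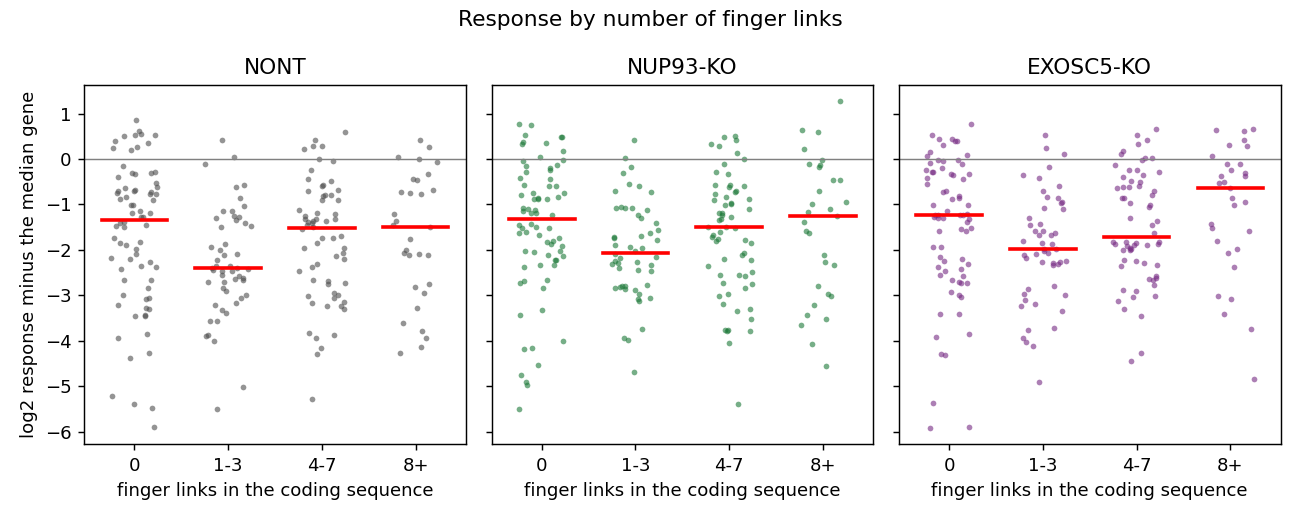
Log2 response minus that of the median gene (vertical axis) for each member, by number of finger links in its coding sequence (horizontal axis), in the 3 genotypes. Points are genes, jittered sideways, red lines are group medians, the grey line at 0 is the median gene, and the medians of all 4 link groups lie below it in each panel, lowest for 1 to 3 links.

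Position varied too. Runs were sets of at least 4 members with neighbouring starts at most 1000000 bases apart. Of 13 such runs, the run on chromosome 7 from 149069641 to 150398630 had the deepest median in NONT (−4.94), with −3.64 in NUP93-KO cells and −3.62 in EXOSC5-KO. Its 9 members were all lower in NONT, where 90.0% of all genes were lower. ZNF786, ZNF398, ZNF282, ZNF212, ZNF783, ZNF777, ZNF746 and ZNF775 belong to it, as does ZNF467, one of the members that changed least in NONT. The run on chromosome 16 from 3112560 to 3409364 (ZNF205, ZNF213, ZNF200, ZNF263, ZNF75A and ZNF174) had medians of −4.21, −2.74 and −2.99, and the longest run, 13 members on chromosome 16 from 30378106 to 31917357, had −4.09, −3.10 and −3.69. The shallowest medians in NONT were those of ZNF248, ZNF25, ZNF33A and ZNF37A on chromosome 10 from 37776526 to 38150293 (−2.13, −1.81 and −1.54) and of ZNF789, ZNF394, ZNF655 and ZNF3 on chromosome 7 from 99472890 to 100082548 (−2.14, −2.06 and −1.64). By whole chromosome, medians in NONT ran from −4.29 for the 6 members on chromosome 11 to −2.53 for the 3 on chromosome 14. Single runs held wide spreads, as in the run of ZNF467, whose members ranged from −5.57 to −1.09 in NONT.

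Levels without drug were compared next. Between NUP93-KO and NONT, 0 members passed the threshold (background 0.0217%, limma), with 3 lower and 0 higher at an unadjusted p under 0.05, beside 338 lower and 242 higher of all genes. The members with the smallest p in each direction were ZNF268 (358.6 and 512.4 in NONT, 248.8 and 271.4 in NUP93-KO cells, log2 difference −0.72, adjusted p = 0.80) and ZNF184 (33.3 and 59.9 against 93.8 and 116.4, 1.21, adjusted p = 1.0). ZNF789 (0.53, adjusted p = 1.0) and ZNF704 (−1.004, adjusted p = 0.93) came next. The libraries of these groups did not overlap for any of the 4 genes, but none of the differences passed the correction.

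Between EXOSC5-KO and NONT, 1 member was higher and 0 lower (background 0.521%), and 14 were higher and 1 lower at an unadjusted p under 0.05, beside 833 and 340 of all genes. The member called was ZNF778 (ENSG00000170100, 7 exons on chromosome 16 from 89217703 to 89237141, plus strand), whose stretch between links is shown above. It read 122.2 and 164.7 in NONT untreated, 193.6 and 202.2 in NUP93-KO cells and 607.8 and 505.3 in EXOSC5-KO, so the EXOSC5-KO libraries lay above the other 4. The difference from NONT was 1.96 ± 0.39 (adjusted p = 0.0303), and the call was lost with no filter (adjusted p = 0.078), without the trend (adjusted p = 0.16), and when either NONT untreated or either EXOSC5-KO untreated library was left out (adjusted p = 0.065 to 0.21, difference 1.74 to 2.17). After triptolide ZNF778 read 85.4 and 55.3 in NONT, 30.1 and 90.7 in NUP93-KO cells and 279.9 and 237.2 in EXOSC5-KO, again highest in EXOSC5-KO. Its responses were −1.04, −1.90 and −1.10, and the one in NONT turned positive under same-total and median-of-ratios scaling.

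A few other members were also highest in EXOSC5-KO without passing the threshold. ZNF789 read 55.6 and 74.8 in NONT, 93.2 and 94.0 in NUP93-KO cells and 197.0 and 192.0 in EXOSC5-KO (EXOSC5-KO minus NONT 1.58, adjusted p = 0.054). ZNF268 read 845.6 and 853.3 in EXOSC5-KO, above its NONT values (0.99, adjusted p = 0.11), and ZNF596 read 4.27 and 7.13 in NONT, 2.17 and 4.84 in NUP93-KO cells and 56.8 and 53.5 in EXOSC5-KO (3.10, adjusted p = 0.15). ZNF268 and ZNF596 are named for this comparison after their values were seen. ZNF596 is 1 of the 5 members under 10 in a genotype, and it passed the minimum through its EXOSC5-KO libraries. With libraries set to the same total, ZNF268 and ZNF789 passed the threshold beside ZNF778, where 385 of all 13811 genes were called higher and 289 lower. Which members were called also changed when single NONT libraries were left out, and such fits leave a group with 1 library. In the other direction, ZNF704 read 293.1 and 747.0 in NONT against 313.1 and 230.1 in EXOSC5-KO, with overlap (−0.80, adjusted p = 0.56), and ZNF892 read 123.2 and 230.6 against 69.7 and 70.6 (−1.25, adjusted p = 0.74).

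**Figure D4:**
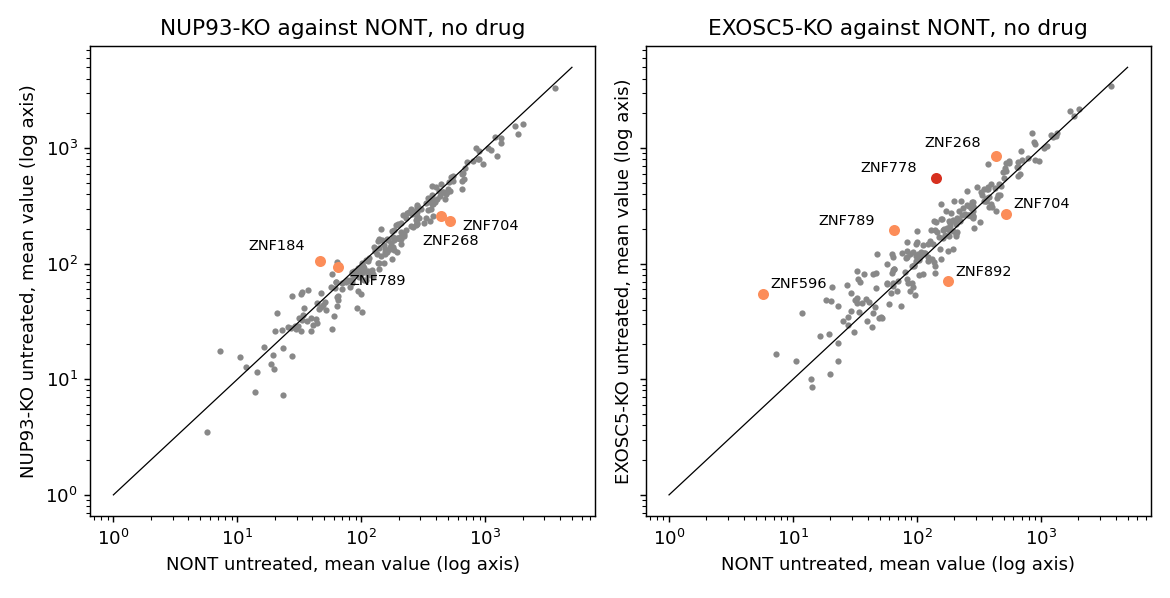
Mean untreated value of each member in NONT (horizontal axis, log scale) against NUP93-KO (left) and EXOSC5-KO (right, vertical axes, log scale), with the line of equal values and 2 libraries behind each mean. Named members are in orange and the called member, ZNF778, is in red, and it lies above the line in EXOSC5-KO with means of 143 and 557.

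The last question was whether the knockouts changed the response to triptolide. On the spike-in scale the median gene fell less in the knockouts than in NONT, by 0.74 in NUP93-KO cells and 0.57 in EXOSC5-KO, and the members' medians were 0.85 and 0.78. On other scales the median gene differed by −0.02 and 0.04 (same total), 0.0044 and 0.019 (median of ratios) and 0.09 and 0.13 (mitochondrial sum), and the members by 0.17 and 0.32, 0.19 and 0.30, and 0.27 and 0.41. Both differences use the same NONT libraries, including the pair whose scale differed by 0.51, so they are not independent of each other. For NUP93-KO minus NONT, 2 members passed the threshold (background 0.775%), both with the smaller fall in NUP93-KO cells, and 69 had positive and 0 negative differences at an unadjusted p under 0.05, beside 5709 and 39 of all genes. For EXOSC5-KO minus NONT, 0 passed (background 0.333%), with 55 positive and 0 negative at an unadjusted p under 0.05, beside 3187 and 56 of all genes. For EXOSC5-KO minus NUP93-KO, 0 passed (background 0.0217%), with 5 positive and 7 negative at an unadjusted p under 0.05, beside 170 and 427 of all genes.

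ZNF316 (ENSG00000205903, chromosome 7 from 6637318 to 6658279) read 1048 and 1189 in NONT untreated and 73.3 and 59.7 treated, 872.9 and 1066 then 239.6 and 177.3 in NUP93-KO cells, and 919.4 and 1175 then 125.3 and 94.6 in EXOSC5-KO. Untreated values overlapped among genotypes, and treated values were highest in NUP93-KO cells and lowest in NONT without overlap. Its responses were −4.06, −2.22 and −3.24, and the difference of NUP93-KO from NONT was 1.84 (adjusted p = 0.032). ZNF74 (ENSG00000185252, chromosome 22 from 20394115 to 20408461), which lies in the region deleted in DiGeorge syndrome, read 335.8 and 419.0 then 18.85 and 17.8 in NONT, 321.0 and 339.4 then 66.2 and 71.7 in NUP93-KO cells, and 375.9 and 539.2 then 48.3 and 64.5 in EXOSC5-KO. Its responses were −4.28, −2.24 and −2.99, and the difference was 2.04 (adjusted p = 0.042). The median gene differed by 0.74 in the same contrast. Both calls were lost when libraries were set to the same total (differences 1.07 and 1.30, adjusted p = 0.34 and 0.30), with median-of-ratios or mitochondrial scaling, with no filter, without the trend, and when NONT untreated replicate 2, NONT triptolide replicate 2, either NUP93-KO untreated library or NUP93-KO triptolide replicate 1 was left out. The ZNF74 call was also lost without NUP93-KO triptolide replicate 2 and without either EXOSC5-KO untreated library. In the opposite direction ZNF778 (−0.86, adjusted p = 0.23) and ZNF689 (−0.59, adjusted p = 0.45) had the smallest p. The number of members called was 64 without NONT untreated replicate 1 and 38 without NONT triptolide replicate 1, all with the smaller fall in NUP93-KO cells, where 7040 and 2480 of all 13811 genes were called in that direction.

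For EXOSC5-KO minus NONT the members with the smallest p were ZNF263 and ZNF800. ZNF263, a KRAB and SCAN protein, read 300.2 and 425.8 then 5.31 and 5.84 in NONT, 304.7 and 373.2 then 23.97 and 23.8 in NUP93-KO cells, and 355.4 and 371.9 then 26.7 and 29.4 in EXOSC5-KO. All 4 treated knockout values were above the NONT values, and the differences in response were 2.01 in NUP93-KO cells (adjusted p = 0.053) and 2.12 in EXOSC5-KO (adjusted p = 0.067). ZNF800 read 8.42 and 6.07 treated in NONT, 21.5 and 30.8 in NUP93-KO cells and 47.8 and 38.9 in EXOSC5-KO, from untreated values of 163.7 to 236.5 (difference 2.30 in EXOSC5-KO, adjusted p = 0.068). Without NONT untreated replicate 1, 46 members passed for EXOSC5-KO minus NONT, ZNF263 and ZNF800 among them (adjusted p = 0.014 for each), where 5280 of all genes passed in the same direction, while 10 passed without NONT triptolide replicate 1, beside 405 of all genes, and 2 without either NUP93-KO triptolide library, beside 63 (replicate 1) and 71 (replicate 2) of all genes. In the opposite direction ZNF282 had a difference of −1.73 (adjusted p = 0.24) and ZNF391, with NONT untreated values of 31.8 and 9.64, of −2.29 (adjusted p = 0.27). Between the knockouts, ZNF740 (1.31), ZNF488 (2.45), ZNF316 (−1.02) and ZNF827 (−1.52) had the smallest p, with an adjusted p of 0.98 each, and 1 member passed, with a negative difference, without EXOSC5-KO triptolide replicate 2, beside 6 of all genes.

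**Figure D5:**
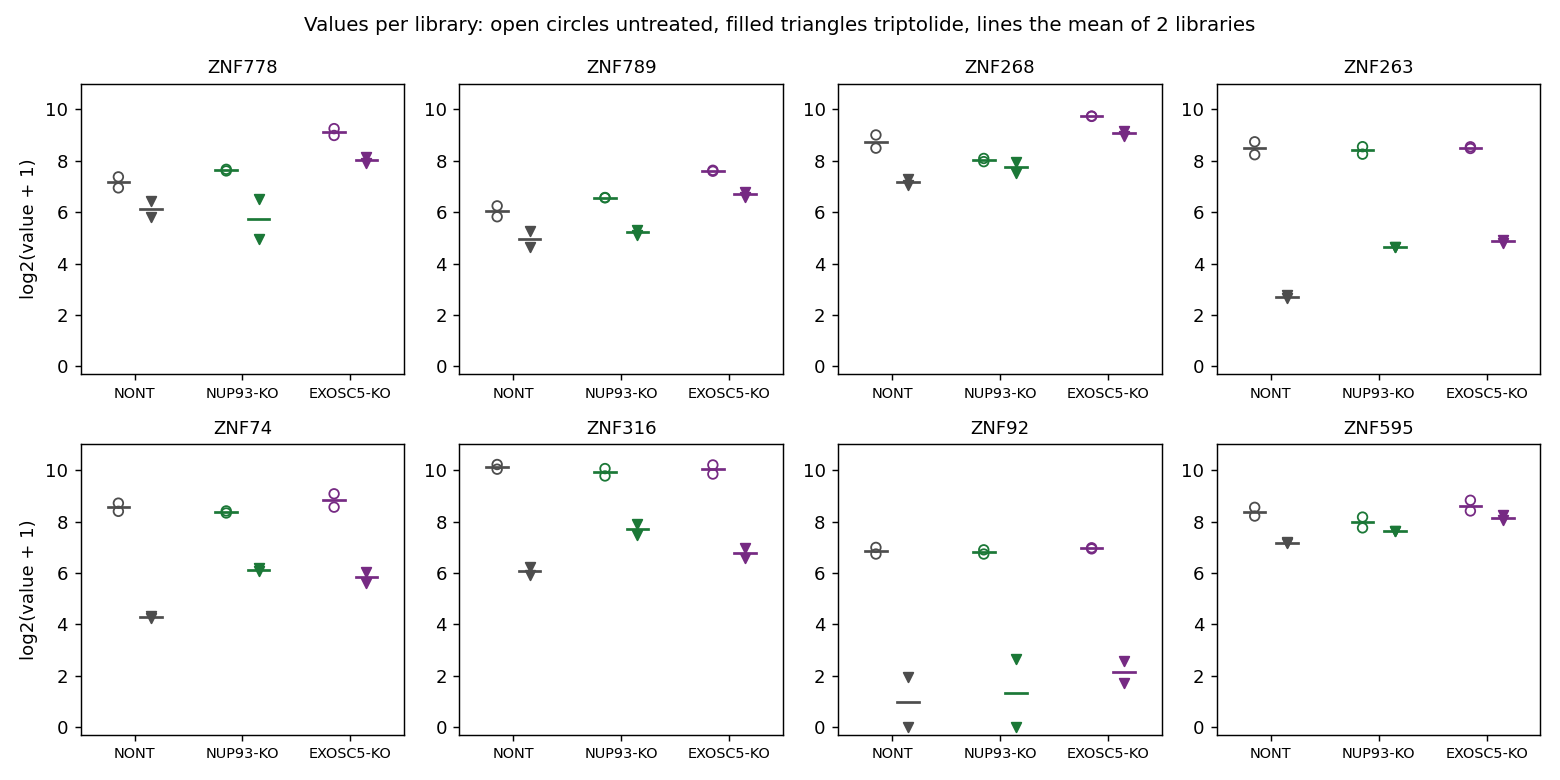
Values of 8 members in each library as log2(value + 1), by genotype, with open circles for untreated, filled triangles for triptolide and lines for the mean of 2 libraries. ZNF778 is highest in EXOSC5-KO in both conditions, treated ZNF263, ZNF74 and ZNF316 are lowest in NONT, and treated ZNF92 is near 0 to 2.7 where ZNF595 stays above 7.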

How the data were processed

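The authors counted poly(A)-selected, strand-specific RNA-seq reads per gene with kallisto 0.46.1 and deposited those gene counts after scaling by DESeq2 size factors, which came from 92 ERCC spike-ins, so the deposited values are a signal per gene and not counts. ERCC RNA was added per counted cell number at lysis, and an error in cell counting or pipetting moves all genes of a library together. Of 22379 gene rows, 19584 matched GENCODE release 44 of GRCh38. The worth of a single read was estimated as the most frequent low value of a library. Whole reads could not be recovered, since 1.70% to 13.0% of low values per library were whole multiples of it (tolerance 0.001). The depth of 8.60 M to 11.96 M is therefore approximate.

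Values were tested as log2(value + 1) with limma 3.58.1 in R 4.3.3 over the 13811 genes with an untreated mean of at least 10, on 6 group means over 12 libraries with a mean-variance trend, two-sided. P-values were adjusted by Benjamini-Hochberg over all genes tested, and adjusted p under 0.05 was the threshold. Fold changes on this scale understate those of low genes. The script was tested on simulated data. Alternatives were 3 other scales (same total per library, median of ratios, same sum of 13 mitochondrial mRNAs), pseudocounts of 0.5 and 5, no filter or an untreated mean of at least 50, no trend, a replicate block, and leaving out each library. Same-numbered libraries did not deviate together (r of −0.0513 to 0.0368), so the numbers were not taken as pairs.

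The members and lists were chosen with earlier results of these data known. Genes were named by rule: in each genotype the 4 deepest and 4 smallest falls among members with an untreated mean of at least 100, for each other contrast up to 4 called members per direction or else the 2 with the smallest p (mean of at least 50), the 6 highest per kilobase, and 30 members with listed roles. No protein sequence was used here.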

Additional observations from a re-analysis of the deposited data

Results flagged for a closer look

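In 2 members the response to triptolide differed between NUP93-KO and NONT by the test of the difference itself (limma, adjusted over all genes). The difference, as NUP93-KO minus NONT, was 1.84 for ZNF316 (adjusted p = 0.032) and 2.04 for ZNF74 (adjusted p = 0.042), with both treated NUP93-KO libraries above both treated NONT libraries for each gene. The background of such calls was 0.775%, and the calls depended on the scale and on single libraries, as given in the report. Groups of 2 libraries are too small for a test of single outlying libraries.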

How the results depend on the processing

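Of 157 values of single genes, each under up to 21 alternatives (3287 in all), 96 kept their side of the threshold throughout, and of these the response of ZNF423 in NONT, which did not pass it, changed sign. Leaving out 1 library gave 202 to 215 members lower in NONT, 168 to 195 in NUP93-KO and 163 to 194 in EXOSC5-KO, 0 higher, and 0 called for untreated NUP93-KO. It gave 0 to 3 called for untreated EXOSC5-KO, 0 to 64 for the difference of NUP93-KO from NONT, 0 to 46 for EXOSC5-KO from NONT and 0 to 1 between the knockouts. Medians ran from −3.56 to −3.20, −2.60 to −2.47 and −2.66 to −2.44, and relative to the median gene from −1.83 to −1.67, −1.62 to −1.56 and −1.53 to −1.41. A group left with 1 library was assumed to vary like the others. The replicate block left 215, 187 and 186 members lower in the same order of genotypes, beside 12403, 7429 and 8670 of all 13811 genes. It left 1 member called for untreated EXOSC5-KO, beside 64 higher and 6 lower of all genes. For the NUP93-KO difference it left 2 members called, beside 41 positive and 2 negative of all genes, and it changed no other call.

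Members higher after triptolide in NONT, NUP93-KO and EXOSC5-KO numbered 1, 1 and 2 with the same total and 8, 7 and 7 with median of ratios. Untreated EXOSC5-KO had 3 called with each other scale and with pseudocount 5, and 0 with no filter. With the mitochondrial sum, 1 of the 3 was lower. Over all genes, higher and lower calls were 385 and 289 (same total), 284 and 503 (median of ratios) and 76 and 719 (mitochondrial sum). They were 89 and 10 with pseudocount 5, and 85 and 10 with no filter. The NUP93-KO difference had 0 called with each other scale, no filter or no trend, and 19 of 183 with a mean of at least 50. Of all 11667 genes at that mean, 1051 were called positive and 5 negative. The EXOSC5-KO difference had 2 called there, beside 77 positive and 2 negative of all genes. The median in NONT was −2.08 (same total), −1.79 (median of ratios), −3.03 (mitochondrial sum), −2.87 (pseudocount 5) and −3.68 (mean of at least 50). In NUP93-KO these were −1.98, −1.66, −2.81, −2.20 and −2.65, and in EXOSC5-KO −1.78, −1.50, −2.32 (pseudocount 5) and −2.71 (mean of at least 50). Relative to the median gene they were −1.37 (pseudocount 5), −2.04 (no filter) and −2.05 (mean of at least 50) in NONT, −1.34, −1.83 and −1.74 in NUP93-KO, and −1.51 (pseudocount 0.5), −1.31, −1.69 and −1.63 in EXOSC5-KO.

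The signs given next turned in a response past the threshold on the spike-in scale or on the other one, with same total and median of ratios, in that order, and some responses past it on neither also changed sign. In NONT these were ZNF219 0.24 and 0.55, ZNF326 0.074 and 0.39, ZNF385A 0.22 and 0.53, ZNF467 0.23 and 0.54, ZNF532 0.33 and 0.64, ZNF595 0.12 and 0.44, ZNF655 0.12 and 0.43, ZNF664 0.14 and 0.45, ZNF778 0.29 and 0.60, and, given for median of ratios, ZNF268 0.079 and ZNF511 0.27. In EXOSC5-KO they were ZNF219 0.17 and 0.45, ZNF268 0.13 and 0.41, ZNF385A 0.48 and 0.77, ZNF511 0.025 and 0.31, ZNF532 0.15 and 0.43, ZNF655 0.25 and 0.54, ZNF664 0.38 and 0.66, and, for median of ratios, ZNF32 0.11 and ZNF595 0.61. In NUP93-KO they were ZNF532 0.41 and 0.74, and, for median of ratios, ZNF219 0.52, ZNF268 0.61, ZNF326 0.16, ZNF595 0.58, ZNF655 0.46 and ZNF664 0.46. These scales assume an equal total or a typical gene without change, and the cause was not tested. Low values limit precision, since 1 read was worth an estimated 0.490 to 1.76.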

Other observations

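A few values fell outside the naming rule and were chosen after they were seen. ZNF251 was scattered between libraries of a group, at 57.9 and 57.4 then 6.29 and 0 in NONT, 0.890 and 53.7 then 18.4 and 7.69 in NUP93-KO, and 110.6 and 86.5 then 237.3 and 5.61 in EXOSC5-KO. It was the member with a positive fitted change in NUP93-KO (0.35), which rests on the untreated library at 0.890. ZNF705A, just under the minimum, read 30.9 and 23.3 in EXOSC5-KO untreated and no more than 0.724 in the other untreated libraries, a pattern of levels like that of ZNF596, and no test was made of it.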
